A study of Bos indicus and Bos indicus x Bos taurus and Bos taurus with 6 samples.

Results

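Whole blood of Kedah-Kelantan cows was compared with whole blood of Brangus cows, gene by gene across the transcriptome. The members were the 2 Kedah-Kelantan and the 2 Brangus libraries, taken by their breed label, which is 4 of the 6 RNA-seq libraries of the series. The other 2 libraries came from Holstein Friesian cows and entered none of the fits reported below except where named. The series concerns deiodinases, the enzymes that activate and inactivate thyroid hormone, and breeds held to differ in heat tolerance.

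Kedah-Kelantan is an indigenous tropical breed that the labels call heat-tolerant and assign to Bos indicus. Brangus is a composite of Brahman and Angus stock, which the labels call intermediate and assign to Bos indicus x Bos taurus. All cows were healthy adult females that were neither pregnant nor in milk, with a stated mean age of 4.5 ± 1.2 years and a stated mean weight of 450 ± 15 kg. Both breeds were kept on one farm and bled from the jugular vein under the same heat-load label, a temperature-humidity index of 44.68. No cow of either breed carried another label, so the comparison is between breeds under heat and holds no contrast of heat with comfort. The design text gives 4 animals per breed, while 2 libraries per breed were analysed here, each labelled as a biological replicate. How libraries relate to the 4 animals is not stated, and p-values below measure only the spread between these libraries.

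Blood RNA comes mostly from white cells. Neutrophils, eosinophils, monocytes and lymphocytes each carry transcripts of their own, and platelets and young red cells add more. Platelets have no nucleus and keep the RNA left by the megakaryocyte. In such bulk samples, fewer cells of a type and less RNA per cell cannot be told apart.

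The Kedah-Kelantan libraries held 27909440 and 28191440 counts and the Brangus libraries 25275377 and 25465718. Genes with at least 1 count numbered 15178 and 15029 in Kedah-Kelantan against 13713 and 13260 in Brangus. Part of that gap lay among weakly counted genes, as 1088 and 975 genes stood at 1 to 3 counts in Kedah-Kelantan against 282 and 149 in Brangus. Haemoglobin transcripts, usually abundant in whole blood, took only 0.016% and 0.02% of counts in Kedah-Kelantan and 0.041% and 0.059% in Brangus, and the gene listed as HBA1 was at 0 in all 4 libraries. The 2 libraries of a breed differed by a median of 0.135 on the log2 scale in Kedah-Kelantan and 0.186 in Brangus, against 0.466 in Holstein Friesian. Levels below are CPM (a gene's count over the library total, scaled up and normalised by TMM), given as replicate 1 and then replicate 2. Fold changes are log2 values of Kedah-Kelantan over Brangus with their standard error (SE), and a gene was called at an adjusted p under 0.05 by edgeR's quasi-likelihood test with Benjamini-Hochberg adjustment over all genes tested, with n = 2 per breed.

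Of 13147 genes tested, 2537 were called, or 19.3%. In Kedah-Kelantan, 1195 genes were higher (9.09% of those tested) and 1342 were lower (10.2%). The genes called higher moved further, with a median log2 fold change of 0.89 against -0.75 for those called lower. Beyond a 2-fold difference stood 503 higher and 403 lower genes, and beyond 4-fold 214 higher and 104 lower. The 214 take in 71 genes with at least 20 counts in both Kedah-Kelantan libraries and none in Brangus. The 104 take in 7 genes with the reverse pattern. The fitted fold of such genes depends on a small added count and is no estimate. The median over all tested genes was 0.03, with quartiles at -0.33 and 0.40. The lists of blood cell markers and pathways described further on hold 473 of the called genes, and the other 2064 lie in none of them.

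**Figure D1:**
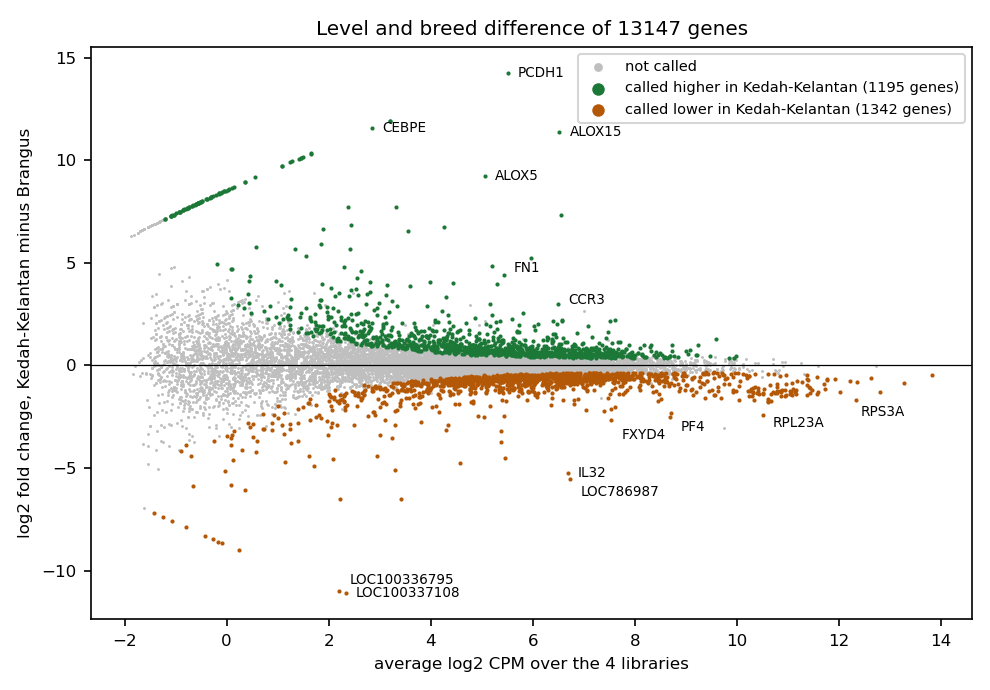
Each point is a tested gene, with its average log2 CPM over the 4 libraries on the horizontal axis and its log2 fold change (Kedah-Kelantan minus Brangus) on the vertical axis. Colours mark the 1195 genes called higher and the 1342 called lower. The sloping lines of points at the left are genes at 0 in one breed, whose plotted fold change depends on a small added count and is no estimate. Differences beyond 4-fold were more often on the side of Kedah-Kelantan, and genes called lower were most frequent at high levels.

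The number of calls depended on which libraries set the spread. The common biological coefficient of variation was 0.186 over the 4 libraries and 0.419 when the Holstein Friesian libraries joined the fit. With all 6 libraries no gene was called for this contrast by edgeR, the smallest adjusted p being 0.338, although 1555 genes had an unadjusted p under 0.05, against 4543 in the fit of 4. The difference between the 2 Holstein Friesian libraries was at least as large as the breed difference for 613 of the 1195 higher genes (51.3%) and for 532 of the 1342 lower genes (39.6%), against 65.3% of all tested genes. Leaving out Kedah-Kelantan replicate 1 left 129 genes called higher and 249 called lower, leaving out Kedah-Kelantan replicate 2 left 263 and 443, and leaving out Brangus replicate 1 or 2 raised the calls to 5285 and 5065.

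Gene length and level both moved with the direction of the call. In the quintile of genes with the shortest models, 26.2% were lower in Kedah-Kelantan and 3.53% were higher. In the quintile with the longest models, 3.92% were lower and 14.8% were higher. The median log2 fold change went from -0.35 in the shortest quintile through -0.05, 0.06 and 0.15 to 0.23 in the longest. Without cytosolic ribosomal protein genes the shortest quintile still had 24% lower, 3.64% higher and a median of -0.33. By level, the share called lower went from 2.24% in the most weakly expressed quintile to 21.3% in the most strongly expressed, and the share called higher from 5.17% to 11%.

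Each library's trend on length was also fitted and removed, with the trend's median set to 0 so that a gene of middle length kept its scaling (re-centred). In this setting, chosen after the data were seen, 992 genes were called higher and 699 lower. Of the calls as fitted, 850 higher and 645 lower were among them, and 2461 of 2537 kept their sign. Values from this setting stand beside most of the gene groups below. The part of gene length in any one difference was not tested. The split of calls also moved with scaling. Library totals alone put the median of all genes at 0.28, against 0.03 with TMM. They gave 2929 higher and 658 lower, 81.7% of calls higher against 47.1% with TMM. A fit of the deposited FPKM values gave 2131 higher and 640 lower, or 76.9% higher.

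**Figure D2:**
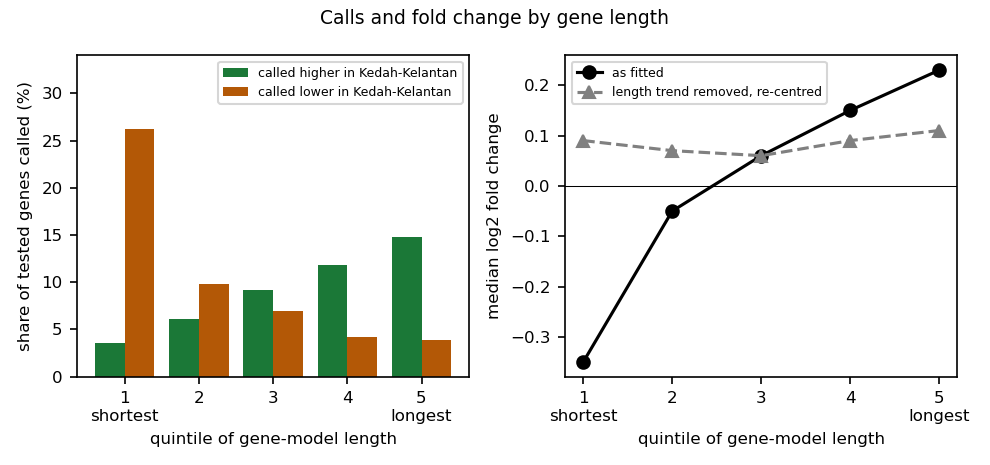
Tested genes are grouped into quintiles by the length of their gene model, from shortest to longest. One panel gives the percentage of genes called higher and lower in Kedah-Kelantan and the other the median log2 fold change as fitted and after the length trend was removed and re-centred. The share called lower went from 26.2% to 3.92% and the share called higher from 3.53% to 14.8%.

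The largest differences were in genes with almost no reads in Brangus. PCDH1, which encodes the adhesion protein protocadherin 1 (chromosome 7, 52931942 to 52958339, minus strand, in the coordinates of the deposited table, for which the processing notes name the build ARS-UCD1.2), had 93.2 and 87.7 CPM in Kedah-Kelantan and no count in either Brangus library. Its 2856 and 2687 counts set a difference of at least 700-fold against a floor of 3 counts per library. ALOX15, encoding arachidonate 15-lipoxygenase, an enzyme typical of eosinophils that oxidises polyunsaturated fatty acids (chromosome 19, 26697233 to 26705814, plus strand), had 181 and 184 CPM in Kedah-Kelantan. Brangus had 3 counts in replicate 1 and none in replicate 2. The ratio of summed levels was 2825, with an exact 95% interval of 966 to 13701 that covers counting error only, and the edgeR adjusted p was 1.44e-05. ALOX5, the 5-lipoxygenase that starts leukotriene synthesis (chromosome 28, 44346284 to 44392527, minus strand), had 67.7 and 64.9 CPM against 0.214 and 0. The fitted log2 difference was 9.21 (SE 0.43) at an edgeR adjusted p of 7.76e-05. In these 3 genes both Kedah-Kelantan libraries lay far above both Brangus libraries.

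HPGD, which inactivates prostaglandins, had 67.8 and 73.5 CPM in Kedah-Kelantan and 4.03 and 0.866 in Brangus (log2 fold change 4.85, SE 0.51, edgeR adjusted p = 0.00166). That call was lost without Kedah-Kelantan replicate 1 (edgeR adjusted p = 0.0979) or replicate 2 (0.0581). FN1, the matrix protein fibronectin (chromosome 2, 103361560 to 103430752, minus strand), had 84.3 and 79.9 CPM against 3.0 and 4.63 (log2 fold change 4.43, SE 0.22, edgeR adjusted p = 9.91e-05). HRH4, the histamine H4 receptor of eosinophils and mast cells, had 69.7 and 77.3 CPM against 2.49 and 6.84 (log2 fold change 3.98, SE 0.39, edgeR adjusted p = 0.00105). ZNF215, a zinc finger gene, had 22.2 and 16.6 CPM against 0.172 and 0. SMPD3, a neutral sphingomyelinase, had 23.7 and 22.2 CPM against 0 and 0.476 and was no longer called without Kedah-Kelantan replicate 1 (edgeR adjusted p = 0.0574). ASIP, the agouti signalling protein known from coat colour, had 29 and 30.3 CPM against 0.515 and 3.03, and its call was lost without Kedah-Kelantan replicate 1 (edgeR adjusted p = 0.11) or replicate 2 (0.0802).

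Among genes that carry only a locus name, LOC100297044, annotated as C-C motif chemokine 14 (chromosome 19, 14390580 to 14401688), had 171 and 202 CPM in Kedah-Kelantan and 1.80 and 0.520 in Brangus (log2 fold change 7.32, SE 0.36, edgeR adjusted p = 1.42e-04). LOC518134, annotated as adhesion G protein-coupled receptor E4, had 115 and 127 CPM against 4.93 and 1.56. LOC132345923 had 34.8 and 39.7 CPM against 0.429 and 0.260. Such genes often have close copies in the cattle genome, and how reads shared between copies were counted is not given in the sources used here.

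Further genes of this size were chosen after their values were seen, to show the breadth of the difference outside the lists. ADORA3, the adenosine A3 receptor, had 19.8 and 24.5 CPM in Kedah-Kelantan and 2.14 and 0.866 in Brangus, a log2 fold change of 3.87 (SE 0.40). DGKG, a diacylglycerol kinase, differed by 3.93, the cytochrome P450 gene CYP2J30 by 3.15 and the calmodulin-dependent kinase gene CAMK1 by 2.66. HP, the haemoglobin-binding protein haptoglobin, had 41.9 and 54.7 CPM against 7.55 and 11.9 (log2 fold change 2.31, SE 0.25). The linker histone gene H1-2 had 127 and 148 CPM against 27.2 and 33.1, and RHEX, a partner of the erythropoietin receptor, had 150 and 163 CPM against 31.7 and 37.9. All 7 were called in the fit of 4 libraries and none in the fit of all 6. Their log2 fold changes stayed at 2.02 or more without any 1 library. Without a Brangus library the spread came from the 2 Kedah-Kelantan libraries alone, so those fits could hardly end a call.

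In the other direction, IL32, encoding a pro-inflammatory cytokine of lymphocytes (chromosome 25, 2490659 to 2494939, plus strand), had 4.6 and 5.91 CPM in Kedah-Kelantan and 223 and 177 in Brangus. It differed by -5.25 on the log2 scale (SE 0.19, edgeR adjusted p = 2.14e-05). IL32 also parted the 2 Holstein Friesian libraries, which had 0 and 1841 counts. LOC786987, an uncharacterised locus (chromosome 23, 29013612 to 29069584, minus strand), had 3.85 and 5.03 CPM against 193 and 224. The fitted log2 difference was -5.55 (SE 0.18) at an edgeR adjusted p of 1.64e-05. A gene just beyond it, LOC504548, annotated as ubiquitin D and chosen after its values were seen, had 44.5 and 49.6 CPM against 160 and 192 (log2 fold change -1.90, SE 0.13).

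CRYGS, a lens crystallin gene, had 0.294 and 0.163 CPM in Kedah-Kelantan and 30.7 and 12 in Brangus (log2 fold change -6.52, SE 0.60, edgeR adjusted p = 7.37e-04). S100A1, a calcium sensor, had 3.85 and 7.74 CPM against 79.6 and 75.9. FXYD4, a regulator of the sodium pump (chromosome 28, 13781054 to 13795326), had 46.3 and 54.6 CPM against 320 and 322 (log2 fold change -2.67, SE 0.12, edgeR adjusted p = 7.76e-05). PTGR1, a prostaglandin reductase, had 9.30 and 7.28 CPM against 93.4 and 56.2. REC8, a meiotic cohesin, differed by -3.54, the amino acid transporter gene SLC38A11 by -3.40 and the reductase gene CYB5R2 by -2.91. LOC132342100, annotated as guanylate-binding protein 2-like, differed by -4.77, and LOC100336029, annotated as the small ribosomal subunit protein uS12, by -4.51. The sodium channel gene SCN3A was called at -5.07 but lost the call without Kedah-Kelantan replicate 1 (edgeR adjusted p = 0.0788) or replicate 2 (0.0717). FBN1, encoding fibrillin 1, was called at -2.68 and lost the call in the same way (0.264 and 0.138).

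**Figure D3:**
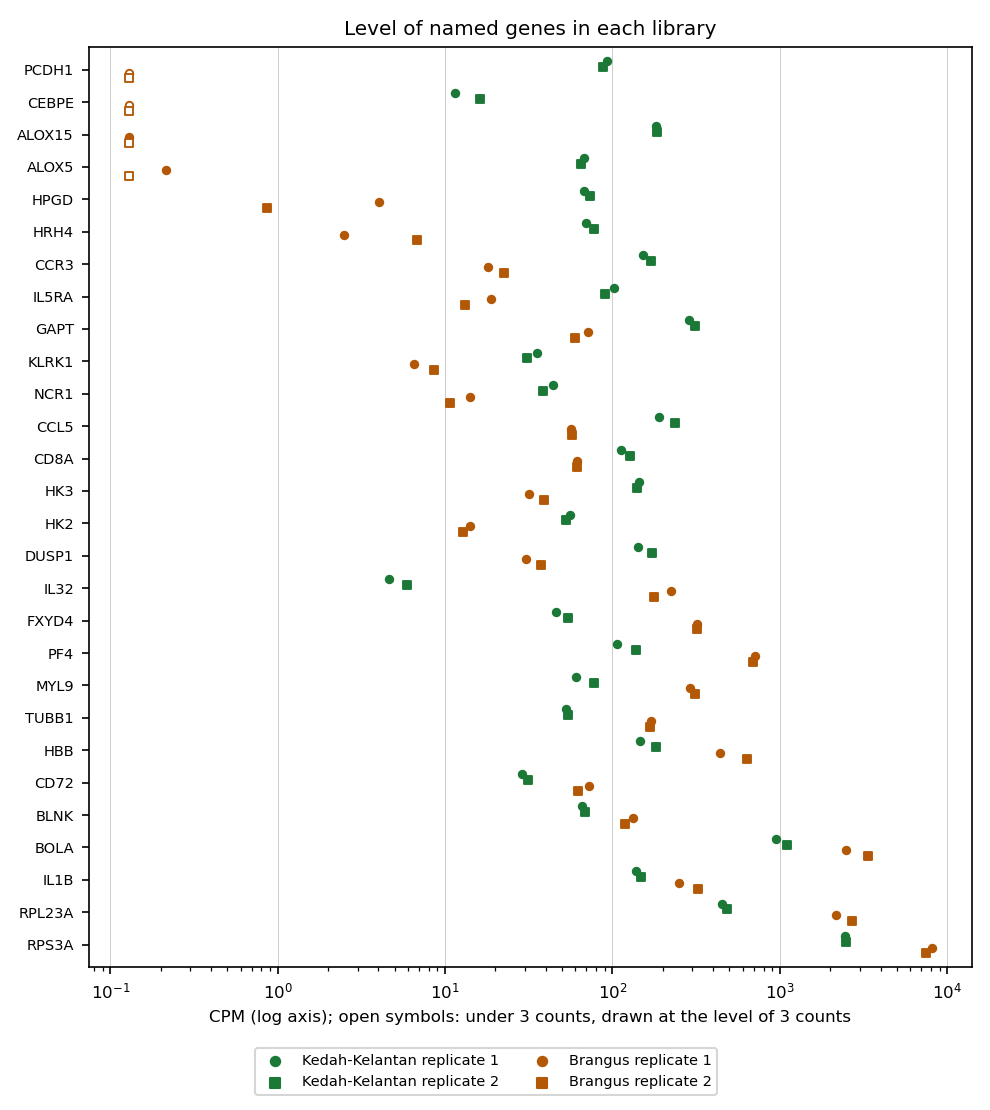
CPM of 28 named genes in each library on a log axis, with green for Kedah-Kelantan, orange for Brangus, circles for replicate 1 and squares for replicate 2. Open symbols stand for fewer than 3 counts and are drawn at the level of 3 counts. The 2 libraries of one breed lay wholly on one side of the other breed for every gene drawn, as for every called gene. Among all 13147 tested genes the same held for 4427 that were higher and 4064 that were lower in Kedah-Kelantan, called or not.

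Genes read in one breed only were mostly read in Kedah-Kelantan. With at least 20 counts in both libraries of one breed and none in either library of the other, there were 71 such genes in Kedah-Kelantan and 7 in Brangus. The counts were 153 and 12 at a minimum of 10, and 21 and 2 at a minimum of 50. Zeros were more frequent in Brangus among genes that the other library of the same breed did count: where one Brangus library counted a gene 20 to 49 times, the other was at 0 for 231 of 2069 genes (11.16%), against 1 of 1902 (0.05%) in Kedah-Kelantan. At 50 to 99 counts these shares were 1.11% and 0. Without Brangus replicate 1 or 2 the 71 genes became 230 and 128, and the 7 became 23 and 14. The part of these zeros in the breed-restricted counts was not tested.

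Of the 71, after PCDH1 the most read were LOC515276, annotated as placental protein 13-like (569 and 538 counts, at least 140-fold higher), and CRTAC1, cartilage acidic protein 1 (529 and 574 counts, at least 139-fold). CEBPE, the transcription factor that drives the late steps of granulocyte formation, had 353 and 497 counts, at least 107-fold higher. RAB44, a small GTPase gene, had 181 and 184 counts, and SERPINB2, plasminogen activator inhibitor 2, had 173 and 189. C6H4orf19 had 173 and 153 counts. GATA2, a transcription factor of basophils and mast cells chosen after its values were seen, had 127 and 152 counts. MPO, the peroxidase of neutrophil granules, had 107 and 131 counts, and LOC781990, annotated as proteoglycan 3-like, an eosinophil granule protein, had 126 and 115. LOC781990 was also chosen after its values were seen. Without Kedah-Kelantan replicate 1 their edgeR adjusted p became 0.0614 and 0.0773, while without Kedah-Kelantan replicate 2 that of MPO was 0.0642.

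Most of these genes also split the 2 Holstein Friesian libraries. Holstein Friesian replicates 1 and 2 had 0 and 650 counts of PCDH1, 4 and 959 of CEBPE, 1 and 339 of GATA2, and 0 and 467 of MPO. Of the 71 genes, 8 had at least 20 counts in both Holstein Friesian libraries, 41 in one of them, and 5 were at 0 in both.

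The 7 genes read only in Brangus were LOC100337108 (311 and 160 counts), LOC100336795, annotated as UL16-binding protein 3 (287 and 147), the olfactory receptor gene OR51D1 (64 and 47), the lysozyme gene LYZ2 (32 and 55), the histone gene H2BC8 (42 and 40), LOC522763 (26 and 50) and the carboxypeptidase gene CPB1 (39 and 29). UL16-binding proteins are ligands of the cytotoxic cell receptor NKG2D. LOC100337108 was at least 103-fold and LOC100336795 at least 95.4-fold higher in Brangus. The calls of the other 5 were lost without either Kedah-Kelantan library, with edgeR adjusted p between 0.0694 and 0.199.

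Markers of eosinophils, basophils and mast cells were higher in Kedah-Kelantan. Of 19 listed genes, 14 were in the table and 11 were tested, and 8 of these were called higher and none lower. Their median log2 fold change was 2.22, against 0.03 for all tested genes, and 2.22 with the length trend removed. The list summed to 600 and 621 CPM in Kedah-Kelantan and 142 and 137 in Brangus. CCR3, the eotaxin receptor of eosinophils, had 152 and 170 CPM against 18.1 and 22.6 (log2 fold change 2.98, SE 0.15, edgeR adjusted p = 1.06e-04). IL5RA, the receptor chain through which interleukin 5 sustains eosinophils, had 102 and 89.9 CPM against 18.9 and 13.2 (2.58, SE 0.19). MS4A2, a chain of the high-affinity IgE receptor, had 5.48 and 5.35 CPM against 0.257 and 0, a call lost without Kedah-Kelantan replicate 1 (edgeR adjusted p = 0.122) or replicate 2 (0.0873). FCER1A, another chain of that receptor, had 5.09 and 8.09 against 8.11 and 5.93 and was not called. CPA3, a mast cell protease, had 1.04 and 1.08 against 1.46 and 0.996 and KIT, the stem cell factor receptor, 9.33 and 10.4 against 9.61 and 5.67. Neither was called.

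GAPT, a transmembrane adaptor gene named for its small p, had 286 and 312 CPM in Kedah-Kelantan and 71.5 and 59.9 in Brangus (log2 fold change 2.19, SE 0.13, edgeR adjusted p = 2.31e-04). These genes were far apart within Holstein Friesian too. Holstein Friesian replicates 1 and 2 had 7 and 16142 counts of ALOX15, 19 and 9019 of ALOX5, 221 and 12643 of CCR3 and 55 and 14455 of LOC100297044. No record of blood cell counts was used here, and the part of cell numbers in the breed difference was not tested.

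Several of the largest differences lay side by side on chromosomes. Among tested genes in chromosomal order, 45 runs of 3 or more neighbours were all called in one direction, 26 higher and 19 lower. Within the natural killer gene complex of chromosome 5 (99452988 to 99660578), 6 neighbouring genes were higher: LOC100296778 by 4.09, LOC101905403 by 1.06, NKG2A by 2.81, NKG2C by 4.81, KLRK1 by 2.13 and KLRD1 by 3.35. They encode lectin-like receptors of cytotoxic lymphocytes. Where such genes have near-identical copies, the assignment of reads among the copies is uncertain, and it was not tested. KLRK1, which encodes NKG2D, had 35.3 and 30.9 CPM in Kedah-Kelantan and 6.56 and 8.57 in Brangus (edgeR adjusted p = 8.77e-04). Of the 6, KLRK1 stayed at a log2 fold change of 1.95 or more and NKG2A at 2.77 or more without any 1 library. The call of LOC100296778 was lost without Kedah-Kelantan replicate 1. KLRD1, NKG2C and LOC101905403 lost their calls without Kedah-Kelantan replicate 1 and also without replicate 2.

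On chromosome 10 (26256262 to 26413011), 5 neighbouring genes of the ribonuclease A family were higher. RNASE6, an antimicrobial ribonuclease of myeloid cells, had 257 and 295 CPM against 121 and 132 (log2 fold change 1.13, SE 0.12, edgeR adjusted p = 0.00124). RNASE4 differed by 1.79, ANG, encoding angiogenin, by 1.93, and ANG2 by 3.43. RNASE4 and ANG overlap in the table, so reads in their shared exons cannot be told apart. BRB, brain ribonuclease, had 2.74 and 4.08 CPM against 0.129 and 0.260, and its call was lost without Kedah-Kelantan replicate 1 (edgeR adjusted p = 0.128) or replicate 2 (0.194).

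On chromosome 7 (17319222 to 17540241) a run of 4 adhesion receptor genes ended with LOC518134 at 5.22, next to LOC100337081, annotated as adhesion G protein-coupled receptor E3, which had 41.2 and 39.2 CPM against 0.986 and 3.94. The 2 others, LOC112447353 and LOC100337044, were higher by 2.23 and 2.03. The call of LOC100337081 was lost without Kedah-Kelantan replicate 1 (edgeR adjusted p = 0.0705), and that of LOC112447353 without either Kedah-Kelantan library (0.339 and 0.293). A further run of 5 on chromosome 5 (101642179 to 101892639) held the C-type lectin genes CLEC6A, CLEC4D and CLEC4E, the scavenger receptor gene CD163 and LOC751811, annotated as a WC1 isolate. None of these 5 stayed called without Kedah-Kelantan replicate 1 or replicate 2, with edgeR adjusted p from 0.129 to 0.338. The longest run was of 7 genes of the mitochondrial genome, all lower, which are taken up with energy metabolism below.

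Cytotoxic lymphocyte genes were higher as a list, which also holds genes of the chromosome 5 complex. Of 31 tested markers of natural killer and cytotoxic cells, 15 were called higher and none lower, with a median of 0.82 (1.09 with the length trend removed). The list summed to 1919 and 2018 CPM against 1177 and 1331. NCR1, the receptor NKp46 of natural killer cells, had 44.0 and 38.5 CPM against 14.0 and 10.7 (log2 fold change 1.74, SE 0.19, edgeR adjusted p = 0.00154). CCL5, a chemokine of activated cytotoxic cells, had 191 and 236 against 56.4 and 57.3 (1.91, SE 0.13, edgeR adjusted p = 2.89e-04), and PRF1, pore-forming perforin, had 127 and 150 against 47.0 and 61.7. ADGRG1, an adhesion receptor of cytotoxic lymphocytes chosen after its values were seen, had 80.5 and 86.1 CPM against 24.6 and 18.5. One cytotoxic product went the other way: LOC104968634, annotated as the antimicrobial peptide NK-lysin and also chosen after its values were seen, had 9.60 and 9.07 CPM against 64.9 and 37.7 (log2 fold change -2.46, SE 0.26). NK-lysin genes form a cluster of close copies, so that value depends on how reads were shared among them.

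T cell markers summed to similar levels, 4630 and 4948 CPM in Kedah-Kelantan and 4380 and 4652 in Brangus, so the breeds overlapped. Of 26 tested, 9 were called higher and 3 lower, with a median of 0.29. CD8A, the co-receptor of cytotoxic T cells, had 113 and 127 CPM against 61.3 and 61.2 (log2 fold change 0.97, SE 0.12, edgeR adjusted p = 0.00205), while CD4, the co-receptor of helper T cells, differed by -0.04 and was not called. SH2D1A, an adaptor of T and natural killer cells, differed by 0.90. None of the 10 tested gamma delta T cell markers was called higher and 2 were called lower, with a median of -0.13. Of 24 tested B and plasma cell markers, none was called higher and 9 were called lower, with a median of -0.43 and sums of 3148 and 3296 CPM against 4767 and 4165. MS4A1, which encodes CD20, had 647 and 686 CPM against 1133 and 994 (log2 fold change -0.67, SE 0.11), and its edgeR adjusted p became 0.0546 without Kedah-Kelantan replicate 1. CD72, a B cell inhibitory receptor, had 28.8 and 31.3 against 72.9 and 62.2, and BLNK, an adaptor of the B cell receptor, had 66.2 and 69.0 against 133 and 119. The B cell list had 6 genes lower and a median of -0.22 once the length trend was removed.

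Platelet transcripts were lower in Kedah-Kelantan. Of 19 tested platelet markers 9 were called lower and 1 higher, with a median of -1.29 (-0.83 with the length trend removed), and the list summed to 958 and 1008 CPM against 2366 and 2422. PF4, platelet factor 4 (chromosome 6, 88924248 to 88925219, plus strand), had 106 and 138 CPM against 710 and 693 (log2 fold change -2.52, SE 0.15, edgeR adjusted p = 2.18e-04). ITGB3, the beta chain of the platelet fibrinogen receptor, had 73.2 and 81.3 against 270 and 355 (-2.02, SE 0.15). TUBB1, the tubulin of the platelet rim, had 52.9 and 54.4 against 170 and 168, and MYL9, a myosin light chain, had 60.8 and 77.3 against 291 and 310. The 1 platelet marker called higher was THBS1, thrombospondin 1, with 27.5 and 27.7 CPM against 14.0 and 7.97, and its call was lost without Kedah-Kelantan replicate 1 (edgeR adjusted p = 0.138) or replicate 2 (0.107).

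Further genes called lower lay outside the platelet list. CLU, the chaperone clusterin, had 9.01 and 10.6 CPM against 55.6 and 56.8 (log2 fold change -2.52, SE 0.16, edgeR adjusted p = 2.82e-04). Chosen after their values were seen, GNG11, a G protein subunit, had 130 and 153 against 603 and 791 (-2.30, SE 0.16), and PARVB, a focal adhesion protein, had 21.3 and 19.4 against 67.5 and 69.1 (-1.75, SE 0.13). CALD1, the actin-binding caldesmon, also chosen after its values were seen, differed by -1.74. TGM3, a transglutaminase, and DYNLT1, a dynein light chain, were chosen in the same way. TGM3 had 62.7 and 56.6 CPM against 233 and 316, and DYNLT1 had 43.5 and 53.4 against 188 and 242.

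Few erythroid markers were called. HBB, beta globin, had 146 and 182 CPM in Kedah-Kelantan and 439 and 639 in Brangus (log2 fold change -1.72, SE 0.19, edgeR adjusted p = 0.00166). Of 24 tested erythroid markers, 3 were called lower and 2 higher, shares near the 10.2% and 9.09% of all tested genes, with a median of -0.68 (-0.39 with the length trend removed), and the sums were 906 and 884 CPM against 1177 and 1393. GATA1, the transcription factor of erythroid, megakaryocyte, eosinophil and mast cell lineages, went the other way with 16.2 and 18.2 CPM against 5.58 and 7.19 (log2 fold change 1.43, SE 0.24). Its edgeR adjusted p became 0.0972 without Kedah-Kelantan replicate 1 and 0.105 without replicate 2. FECH, ferrochelatase, which completes haem, was the other marker called higher, at 1.21, and lost its call without Kedah-Kelantan replicate 1 (edgeR adjusted p = 0.0822) or replicate 2 (0.0633).

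Neutrophil and monocyte markers were called in both directions. Of 20 tested neutrophil markers 3 were called higher and 4 lower, beside 9.09% and 10.2% of all tested genes. Their median was -0.21. With the length trend removed 2 were lower and the median was -0.02. The sums of 3382 and 3587 CPM lay below 3608 and 5586, with the 2 Brangus libraries far apart. MMP8, CATHL4, CATHL5 and AZU1 were at 0 in all 4 libraries. FCGR3A, an IgG receptor, had 237 and 272 CPM against 452 and 563 (log2 fold change -1.0, SE 0.14), whereas PADI4, the enzyme that citrullinates histones, had 58.4 and 67.0 against 14.8 and 13.8 (2.14, SE 0.15). Of 19 tested monocyte markers 4 were called higher and 1 lower, with a median of -0.07. With the length trend removed 4 were higher, none was lower and the median was 0.36. The monocyte list summed to 1909 and 2175 CPM against 1796 and 1698. VCAN, the proteoglycan versican, had 69.7 and 63.4 CPM against 16.0 and 13.9 (2.15, SE 0.15). In Holstein Friesian replicates 1 and 2, VCAN had 215 and 8862 counts and PADI4 had 51 and 3484. Of 15 tested dendritic cell markers 2 were higher and 1 lower, beside 9.09% and 10.2% of all tested genes. The part of these cell types in the differences of other genes was not tested.

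**Figure D4:**
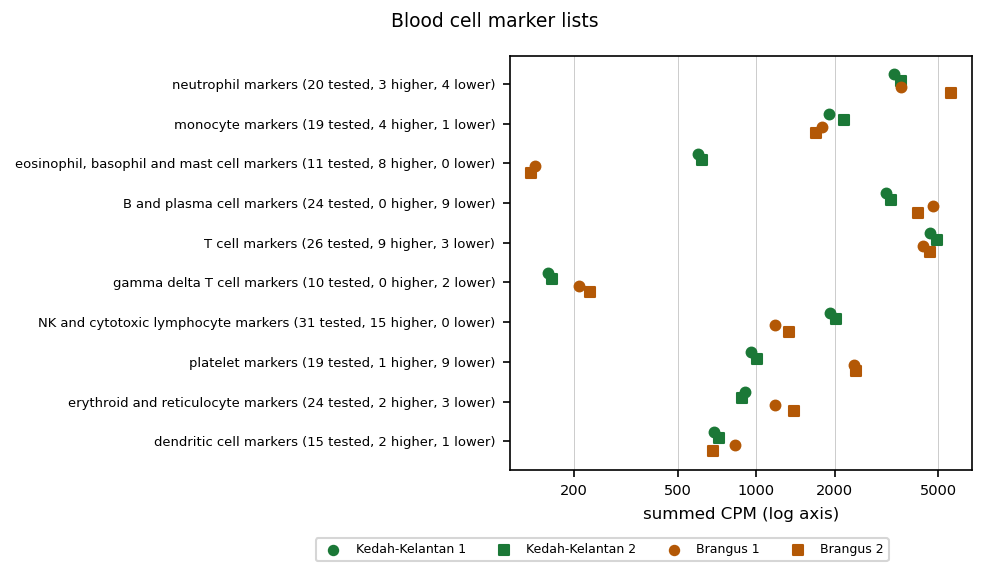
Summed CPM of the 10 blood cell marker lists in each library on a log axis, with the number of genes tested and called beside each list. Green marks Kedah-Kelantan and orange Brangus. Eosinophil, basophil and mast cell markers, cytotoxic markers and monocyte markers stood higher in both Kedah-Kelantan libraries. Platelet, B cell, erythroid, gamma delta T cell and neutrophil markers stood lower, and the T cell and dendritic cell sums overlapped.

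Ribosomal protein genes were lower throughout. All 78 tested cytosolic ribosomal protein genes were called lower in Kedah-Kelantan, with a median of -1.26, and together they took 7.63% and 8.4% of counts against 16.1% and 16.4% in Brangus. RPS3A, of the small subunit, had 2453 and 2480 CPM against 8099 and 7493 (log2 fold change -1.66, SE 0.09, edgeR adjusted p = 1.73e-04). RPL23A, of the large subunit (chromosome 19, 20145787 to 20148657), had 449 and 481 against 2177 and 2703 (-2.39, SE 0.13, edgeR adjusted p = 1.65e-04). These genes are short and have many processed copies. With the length trend removed and re-centred 64 of the 78 were called lower and none higher, and the median was -0.60.

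Initiation factors had 19 of 41 called lower and none higher, with a median of -0.39, and EIF3M, a subunit of initiation factor 3, had 182 and 189 CPM against 357 and 370 (log2 fold change -0.97, SE 0.10). With the length trend removed 9 were lower and the median was -0.20. Mitochondrial ribosomal proteins had 22 of 75 lower and a median of -0.46, but 3 lower, 1 higher and a median of -0.02 with the length trend removed. Proteasome subunits went from 20 of 49 lower at a median of -0.34 to 5 lower at -0.01. PFDN5, of the prefoldin complex that hands new proteins to chaperonins, had 113 and 114 CPM against 251 and 273 (log2 fold change -1.21, SE 0.11), and 11 of 16 chaperonin genes were lower, against 3 with the length trend removed.

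Genes of mitochondrial respiration followed the same course. Of 74 tested nuclear genes of oxidative phosphorylation 41 were called lower and none higher, with a median of -0.54, and with the length trend removed 6 were lower, 2 higher and the median was 0.05. COX7C, a subunit of cytochrome c oxidase, had 32.4 and 37.4 CPM against 86.4 and 83.2 (log2 fold change -1.28, SE 0.13), and its edgeR adjusted p became 0.126 with the length trend removed. Of 13 genes of the mitochondrial genome 10 were lower, with a median of -0.64, and none was called with the length trend removed, where the median was -0.04. ATP8, a subunit of ATP synthase with one of the shortest reading frames there, had 33.4 and 41.1 against 91.2 and 105 (-1.40, SE 0.15) and came to 0.01 with the length trend removed. In both lists the lower calls therefore depended on the treatment of gene length, while most of those of the cytosolic ribosome remained.

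**Figure D5:**
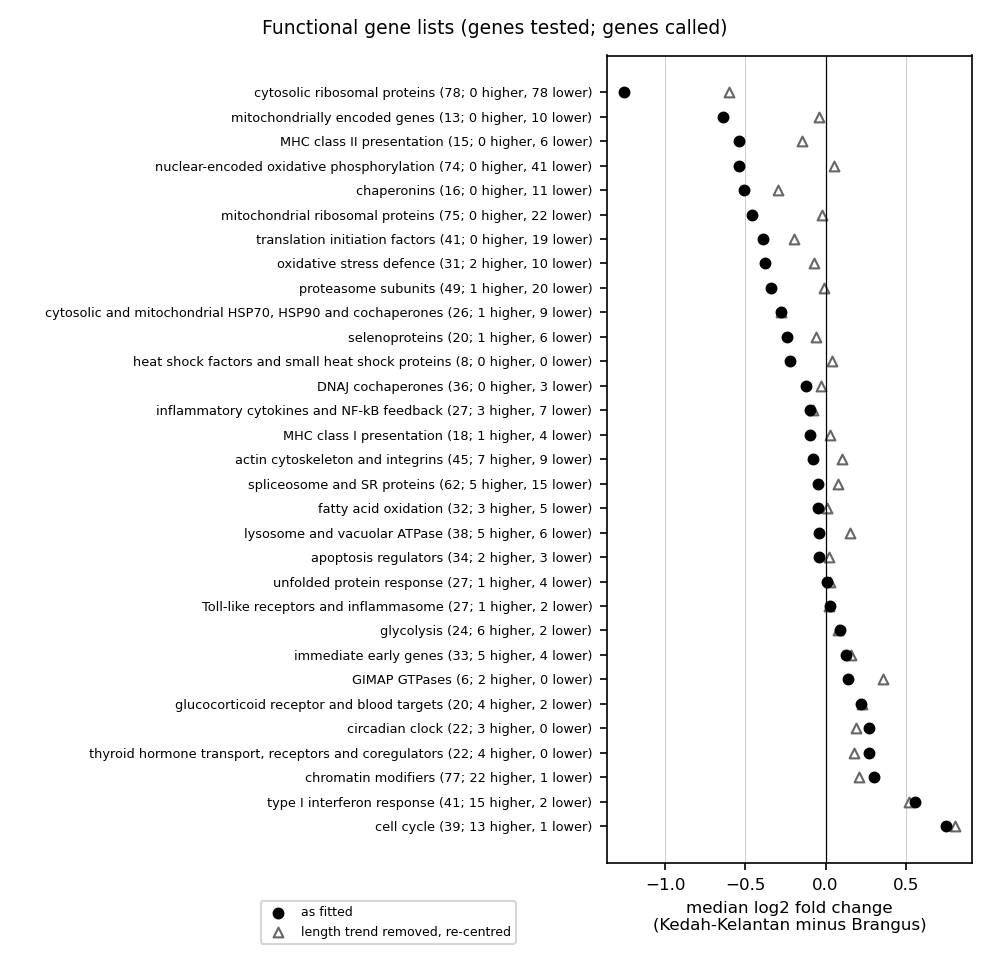
Median log2 fold change (Kedah-Kelantan minus Brangus) of 31 functional gene lists, as fitted (filled circles) and with the length trend removed and re-centred (open triangles), with the number of genes tested and called. The cytosolic ribosomal protein list stayed lowest at -1.26 and -0.60, whereas the oxidative phosphorylation list went from -0.54 to 0.05. Cell cycle and interferon genes had the highest medians.

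Among the heat shock genes HSPA1A was not called and both cytosolic HSP90 genes were lower. HSPA1A, the inducible HSP70, had 153 and 167 CPM in Kedah-Kelantan and 164 and 174 in Brangus (log2 fold change -0.08, SE 0.11, edgeR adjusted p = 0.642). HSF1, the main heat shock transcription factor, had 31.7 and 37.5 against 37.9 and 34.7 (-0.07, SE 0.15, edgeR adjusted p = 0.789). The sign of both turned positive under library totals alone. HSP90AA1 had 709 and 709 CPM against 1117 and 1058 (-0.62, SE 0.10) and HSP90AB1 had 953 and 897 against 1492 and 1372 (-0.63, SE 0.10). Of 26 tested genes of HSP70, HSP90 and their partners 9 were lower and 1 higher, with a median of -0.28. That median was also -0.28 with the length trend removed, and -0.02 under library totals alone. None of the 8 heat shock factors and small heat shock proteins was called. Of 36 DNAJ cochaperones 3 were called lower, a share near the 10.2% of all tested genes, and none was called higher.

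Antioxidant genes were lower in 10 of 31 cases and higher in 2, with a median of -0.38 that became -0.07 with the length trend removed. SOD2, the mitochondrial superoxide dismutase, had 114 and 126 CPM against 243 and 388 (log2 fold change -1.40, SE 0.21, edgeR adjusted p = 0.0049). That call was lost without Kedah-Kelantan replicate 1 (edgeR adjusted p = 0.121) or replicate 2 (0.0667). Among 20 selenoproteins, the family to which deiodinases belong, 6 were lower and 1 higher, with a median of -0.24. Removing the length trend gave 2 lower, 1 higher and a median of -0.06. In the unfolded protein response 4 of 27 genes were lower and 1 higher, beside 10.2% and 9.09% of all tested genes. The median was 0.01, and 2 were lower with the length trend removed.

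No deiodinase gene could be tested. DIO1 and DIO3, which encode deiodinases, had no count in any of the 4 libraries. DIO2 had 4 and 11 counts in Kedah-Kelantan and 0 and 9 in Brangus, too few to be tested. THRA, a thyroid hormone receptor, had 35.0 and 32.1 CPM against 32.2 and 28.3 (log2 fold change 0.15, SE 0.15, edgeR adjusted p = 0.522), and THRB, the other, had 1.5 and 0.947 against 1.2 and 0. Of 22 tested transporters, receptors and coregulators 4 were called higher and none lower, with a median of 0.27. Removal of the length trend gave 2 higher, 1 lower and a median of 0.18. NCOA1, a coactivator of nuclear receptors, had 78.6 and 68.1 CPM against 37.9 and 49.7 (0.75, SE 0.16), a call lost without Kedah-Kelantan replicate 1 (edgeR adjusted p = 0.203) or replicate 2 (0.079).

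Of 33 tested immediate early genes 5 were called higher and 4 lower, shares near the 9.09% and 10.2% of all tested genes, and 7 were higher and 1 lower with the length trend removed. FOS, a subunit of the AP-1 transcription factor, had 55.3 and 70.7 CPM against 4.29 and 11.6 (log2 fold change 2.99), but lost its call without Kedah-Kelantan replicate 1 (edgeR adjusted p = 0.0712) or replicate 2 (0.0593). DUSP1, a phosphatase of the MAP kinases that glucocorticoids induce, had 142 and 173 against 30.6 and 37.2 (2.21, SE 0.15, edgeR adjusted p = 2.89e-04). Its counts in Holstein Friesian replicates 1 and 2 were 427 and 6549. Of 20 glucocorticoid genes 4 were higher and 2 lower, beside 9.09% and 10.2% of all tested genes. ANXA1, the anti-inflammatory annexin, had 781 and 823 CPM against 345 and 455 (1.00, SE 0.14), whereas TSC22D3, another glucocorticoid target, had 956 and 1024 against 1409 and 1424 (-0.52, SE 0.10). Without Kedah-Kelantan replicate 1 the edgeR adjusted p of TSC22D3 was 0.074. Of 22 clock genes 3 were higher, beside 9.09% of all tested genes, and none was lower. Among the 3, RORA had 102 and 81.9 CPM against 51.7 and 39.4 (1.02, SE 0.17) and lost its call without Kedah-Kelantan replicate 1.

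Interferon-induced genes were higher in 15 of 41 cases and lower in 2, with a median of 0.56 (0.52 with the length trend removed). OAS1X, an antiviral oligoadenylate synthetase, had 100 and 58.9 CPM against 11.8 and 21.1 (log2 fold change 2.27, SE 0.33, edgeR adjusted p = 0.00525). MX1, a standard interferon marker, had 520 and 489 against 421 and 502, overlapped and was not called. Among inflammatory cytokines and their regulators 3 of 27 were higher and 7 lower, beside 9.09% and 10.2% of all tested genes. IL1B, interleukin 1 beta, had 138 and 148 CPM against 251 and 326 (-1.01, SE 0.14). ICAM1, an adhesion molecule induced by inflammatory signals, differed by -1.89, and its edgeR adjusted p became 0.0905 without Kedah-Kelantan replicate 1. BOLA, listed as a class I MHC gene, had 944 and 1110 CPM against 2471 and 3386 (-1.51, SE 0.16), and the immunoproteasome gene PSMB8 had 471 and 535 against 814 and 908 (-0.78, SE 0.11). MHC alleles differ widely between cattle, and the part of mismatched reads in their counts was not tested. In class II presentation 6 of 15 genes were lower, and 1 with the length trend removed.

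Cell cycle genes were higher. Of 39 tested, 13 were called higher and 1 lower, with a median of 0.75 (0.81 with the length trend removed). MKI67, the marker of dividing cells, had 121 and 81.5 CPM in Kedah-Kelantan and 26.6 and 35.5 in Brangus (log2 fold change 1.71, SE 0.22, edgeR adjusted p = 0.00295). Chromatin modifiers had 22 of 77 higher and 1 lower, with a median of 0.30. With the length trend removed 12 were higher and 1 lower, and the median was 0.21. KDM7A, a histone demethylase, had 144 and 112 CPM against 62.1 and 59.7 (1.07, SE 0.14).

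Of 24 tested glycolysis genes 6 were called higher and 2 lower, beside 9.09% and 10.2% of all tested genes. Their median was 0.09. HK2 and HK3 phosphorylate glucose. HK2 had 55.5 and 52.6 CPM against 14.1 and 12.8, and HK3 had 144 and 140 against 31.6 and 38.8. The log2 fold change was 2.01 for each (SE 0.15 and 0.14). Counts of HK2 were 298 and 3263 in Holstein Friesian replicates 1 and 2, and those of HK3 were 484 and 11272. SLC2A1, the glucose transporter GLUT1, had 29.1 and 34 against 10.4 and 11.7 (1.51, SE 0.18). The other 3 called higher were HK1 at 0.82, PDK1, which restrains pyruvate dehydrogenase, at 0.77, and the lactate transporter gene SLC16A3 at 1.36. Without Kedah-Kelantan replicate 1 the edgeR adjusted p was 0.101 for HK1 and 0.0799 for PDK1, and without replicate 2 it was 0.0507 for SLC16A3. The 2 called lower were GAPDH and TPI1, enzymes of the middle of the pathway, at -0.42 and -0.60, and with the length trend removed their edgeR adjusted p became 0.768 and 0.147. Neither was called without Kedah-Kelantan replicate 1 (0.174 and 0.133) or replicate 2 (0.0507 and 0.0519).

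Among 160 symbol families with at least 10 tested members, the lowest medians belonged to RPL (46 genes, 45 lower, -1.24) and RPS (43 genes, 33 lower and 2 higher, -1.19). The RPS stem also takes in genes outside the ribosomal protein list, such as RPS6KA1 and RPS19BP1. Next came COX (25 genes, 14 lower, -0.64), NDUFA and NDUFB (13 and 11 genes, -0.60 for each) and MRPL (49 genes, -0.49). The highest medians belonged to CDH (10 genes, 4 higher and 1 lower, 1.52), the kinesins KIF (30 genes, 6 higher and none lower, 0.69) and the integrin alpha chains ITGA (10 genes, 1 higher, 0.67). Next came CLEC (16 genes, 5 higher and 1 lower, 0.49), the collagens COL (11 genes, 1 higher, 0.47) and the phosphodiesterases PDE (18 genes, 3 higher and 1 lower, 0.42). For ITGA and COL the share called higher was near the 9.09% of all tested genes, whose median was 0.03. CDH15, KIF12, KIF17 and COL6A3 were at 0 in both Brangus libraries. Their fitted folds are no estimates but entered the medians of CDH, KIF and COL. With the length trend removed CDH stood at 1.42, KIF at 0.60, ITGA at 0.60, CLEC at 0.54, PDE at 0.48 and COL at 0.39. RPL stood at -0.65 and RPS at -0.47, while COX came to -0.01 and MRPL to -0.05. NDUFB came to 0.04 and NDUFA to 0.16, so that both NDUF families changed sign. By nuclear chromosome, with the mitochondrial genome and unplaced sequences left aside, the share of genes higher ran from 6.14% on chromosome 14 to 12.6% on chromosome 22. The share lower ran from 6.87% on chromosome 18 to 15.4% on chromosome 23, with chromosome 14 next at 15.2%.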

How the data were processed

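Whole blood RNA was sequenced in 6 libraries, and 4 of them entered this comparison. The build ARS-UCD1.2 and the tools HISAT2 2.2.1, featureCounts 2.0.1, DESeq2 1.38.0, Trimmomatic 0.39 and FastQC 0.11.9 are listed, without settings, in the submitters' processing notes. Strandedness is not given in the sources used here. Raw read counts per gene for 21698 genes were deposited. The authors also deposited FPKM values, which divide the counts by a fixed gene length and the library total (largest deviation 0.042% over 2466 genes). Gene coordinates are those of the deposited table. Its sequence names were turned into chromosome numbers through symbols shared with a RefSeq gene table.

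Counts were fitted with edgeR 4.0.16 in R 4.3.3 (TMM factors 0.908 to 1.098, filterByExpr, glmQLFit with robust estimation, glmQLFTest, breed only, 2 residual degrees of freedom), and the procedure was tested on simulated counts. Genes read in both libraries of one breed and at 0 in the other have no fitted fold. They are given against a floor of 3 counts per library. Intervals and floors cover counting error only. DESeq2 1.42.0, limma 3.58.1 on log2(FPKM + 0.1) and other settings served as alternatives.

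Named genes were the 10 symbol-named and 4 locus-named called genes per direction with the largest fold change at an average log2 CPM of at least 3. Also per direction came the 8 with the smallest p, up to 6 among the 300 most abundant and up to 8 breed-restricted genes. Of the 42 lists, each with a called gene gave up to 3 genes with the smallest p, called or not. A further 8 genes were named whatever their values. Members of the longest chromosomal runs were named with their run. FCER1A, CPA3, KIT, CD4, MX1, ITGB3, PRF1, THBS1, GATA1, MS4A1, MS4A2, TPI1, GAPDH, HK1, PDK1 and SLC16A3, and the run of adhesion receptor genes on chromosome 7, were chosen after their values were seen. The members and lists were chosen with earlier results of these data known, and no list was tested as a set. A gene that the naming rule selects is not reported here.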

Additional observations from a re-analysis of the deposited data

How the results depend on the processing

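No gene called as fitted was called in the opposite direction under another setting. Against 1195 genes called higher and 1342 lower, library totals alone gave 2929 and 658, the limma fit of log2(FPKM + 0.1) gave 2131 and 640, and removal of the length trend without re-centring gave 560 and 2214, with medians of all genes at 0.28, 0.28 and -0.17. Re-centred, a setting chosen after seeing the data, it gave 1691 calls, 699 of them lower. The fit of all 6 libraries gave 0 calls, 0 higher and 0 lower. Replicate numbers did not pair the breeds (r = 0.02 across genes). A replicate block gave 2749 calls, and with the length trend removed 494 higher. Leaving out 1 library gave from 378 to 5285 calls, 129 to 2866 higher and 249 to 2419 lower; the genes read only in Kedah-Kelantan became 92 to 230 and those read only in Brangus 9 to 23. Minimums of 10 and 50 counts gave 153 and 21 genes for Kedah-Kelantan and 12 and 2 for Brangus. DESeq2 called 1423 higher and 1571 lower, 1186 and 1338 of them shared. HSPA1A was at 0.18 under library totals and under FPKM, HSF1 at 0.19 and 0.18, at 0.03 re-centred for length and from -0.21 to 0.05 without 1 library, ATP8 at 0.01 re-centred for length and THRA at -0.18 with the length trend removed, with or without the block. Of genes that were not called, CD4 was at 0.21 and 0.25 under library totals and FPKM and from -0.33 to 0.32 without 1 library, CPA3 at 0.04 and 0.06 and from -0.46 to 0.09, and FCER1A at 0.16 and 0.14 and from -0.48 to 0.20. With the length trend removed FCER1A was at 0.07, at 0.31 re-centred and at 0.06 with the block, and MX1 at -0.13 and with the block -0.12. The block ended the calls of OAS1X (edgeR adjusted p = 0.0854), FBN1 (0.065) and LOC112447353 (0.246), and of no other gene named. Of the 41 gene lists with tested genes, 23 had a median that changed sign under at least 1 setting. The cause of these shifts was not tested, and 2 libraries per breed limit every value.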
